A study of Gallus gallus with 6 samples.

Results

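The genes described here carry the symbols of cell division cycle families, read in the embryonic chick gut. They are cyclins, cyclin-dependent kinases and their inhibitors, CDC genes, replication licensing factors and E2F transcription factors. Centromere and kinetochore genes, mitotic kinases, mitotic kinesins and 5 proliferation and nucleotide genes complete the set. All were chosen by gene symbol, and some of them act mainly outside the cycle. Of the 17108 genes listed, 109 symbols matched, and the 105 with a value above 0 in at least 3 of the 6 libraries are the members. RNA-seq profiles came from the ceca, the paired blind outgrowths at the junction of midgut and hindgut, and from the gut region that the labels name interceca, each with 3 libraries. Both regions were cut out of the guts of Gallus gallus embryos at embryonic day 5, Hamburger-Hamilton stage 26, with no treatment, genetic change or strain named in the labels for either. Nothing in the labels says that the libraries of a tissue stem from separate embryos or pools. The p-values thus rest on how far these libraries differ from each other, and part of that may be technical.

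The cell cycle is driven by cyclins, which switch on cyclin-dependent kinases (CDKs) in turn: D and E cyclins lead cells from G1 into S phase, and A and B cyclins with CDK1 carry them into mitosis. E2F factors switch on the genes of S phase, the ORC and MCM proteins load onto replication origins in G1, and the anaphase-promoting complex (APC/C) ends mitosis by tagging cyclin B for destruction. At mitosis the centromere proteins build the kinetochore, to which spindle microtubules attach, and transcripts of many mitotic genes are known to peak in G2 and M phase. In the chick gut of this stage the mesenchyme and epithelium are still dividing, and the cecal buds are growing out of the gut tube.

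Levels are the authors' RPKM (read counts divided by the length of the gene and the size of the library). Differences were fitted with limma on log2(RPKM + 0.5) and are given as ceca over interceca on that scale, which shrinks the differences of genes with low RPKM. Errors of these differences are standard errors (SE), intervals are 95%, and "higher" or "lower" means an adjusted p under 0.05, with Benjamini-Hochberg adjustment over the 10678 genes that reached 1 RPKM in 3 or more libraries. Means are given with the SD of 3 libraries.

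The libraries held 15741991 to 22802209 recovered reads, with interceca replicate 1 the shallowest. Marker genes of other cell types differed between the tissues: summed RPKM of gut epithelium markers was 120 to 183 in ceca and 353 to 539 in interceca, with 4 of 5 tested markers lower. Smooth muscle markers summed to 179 to 207 against 459 to 488, with 5 of 5 lower. Mesothelial markers summed to 264 to 290 against 82.0 to 92.3, with 3 of 4 higher and 1 lower. Most of this sum in ceca was WT1 (188 ± 13.9 RPKM against 27.8 ± 3.45). The lower one was MSLN, with a log2 fold change of -2.27 ± 0.15 (SE; adjusted p = 3.89e-05 in limma). Neuronal markers summed to 780 to 858 against 924 to 989, with 2 of 5 lower. Most of the neuronal sum was TUBB3 (765 ± 64.4 RPKM against 855 ± 10.1, not past the threshold), while the median log2 fold change of the 5 was -1.75, with NEFL at -1.80 and NEFM at -1.79. Enteric neural crest markers summed to 2.64 to 10.7 against 14.5 to 18.4, with 2 of 5 lower, and gut mesenchyme markers to 675 to 724 against 653 to 710. Blood markers summed to 421 to 444 against 303 to 410, with HBAD listed at 0, and endothelial markers to 98.8 to 114 against 82.1 to 109, with 1 of 5 higher. The part of these cell types in the results below was not tested, and in bulk tissue fewer cells of a type and less RNA per cell cannot be told apart. Replicate 1 stood apart in both tissues for part of the members: it was the highest library of its tissue, in ceca and in interceca alike, for 34 of the 100 members tested, against 18.6% of all genes tested. Results are therefore also given without both of these libraries.

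Of the 105 members, 100 could be tested. The cell cycle genes were close to level between ceca and interceca. In ceca 5 members were higher (CENPO, PLK3, CDK17, CDC73 and E2F6), against 13.5% of all genes tested, and 4 were lower (PLK2, CDK3, CDC27 and AURKA), against 14.1%. That is 9 of 100 called in either direction where 27.5% of all genes were called. At an unadjusted p under 0.05 there were 16 of 100 members and 4160 of the 10678 genes. The median log2 fold change was -0.01 over the members and 0.01 over all genes, and the median size of the change, whatever its sign, was 0.10 over the members and 0.15 over all genes. The SD of the log2 fold changes was 0.19 over the members and 0.54 over all genes. PLK2 was the 1 member with a fitted difference of at least 1.5-fold, which 13.6% of all genes had.

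**Figure D1:**
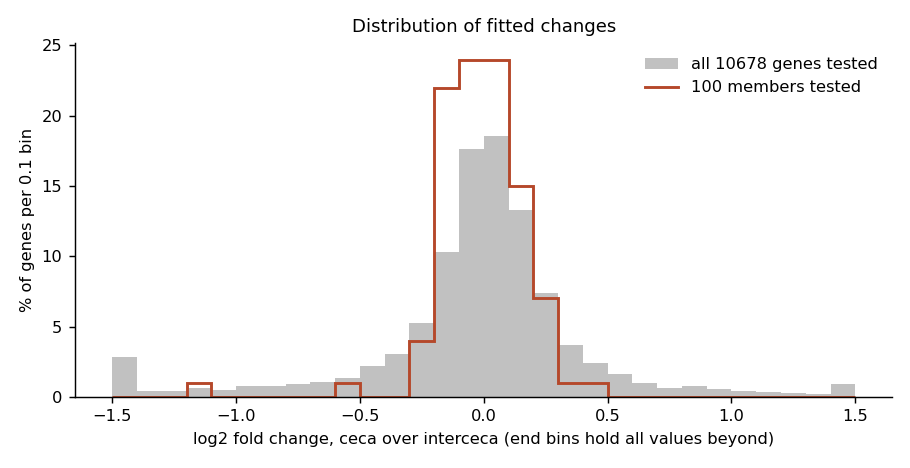
Share of genes (%) in each bin of 0.1 of the log2 fold change, ceca over interceca, for the 100 members tested (red line) and all 10678 genes tested (grey); the end bins hold all values beyond them. The members crowd around 0, with 15 of 100 at or beyond 0.2 in size against 40.1% of all genes, and the single member far to the left is PLK2 at -1.18.

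A test that misses its threshold does not show that levels are equal, so the intervals were read as well. For 96 of the 100 members the 95% interval of the difference lay inside a 1.5-fold change in either direction (0.58 on the log2 scale), as it did for 72.3% of all genes. The 4 whose interval reached past it were PLK2, CENPO, CDK3 and cdk6. The libraries of the tissues did not overlap for 22 of the 100 members, against 44.1% of all genes: 12 had ceca above, against 23.0% of all genes, and 10 had ceca below, against 21.1%.

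**Figure D2:**
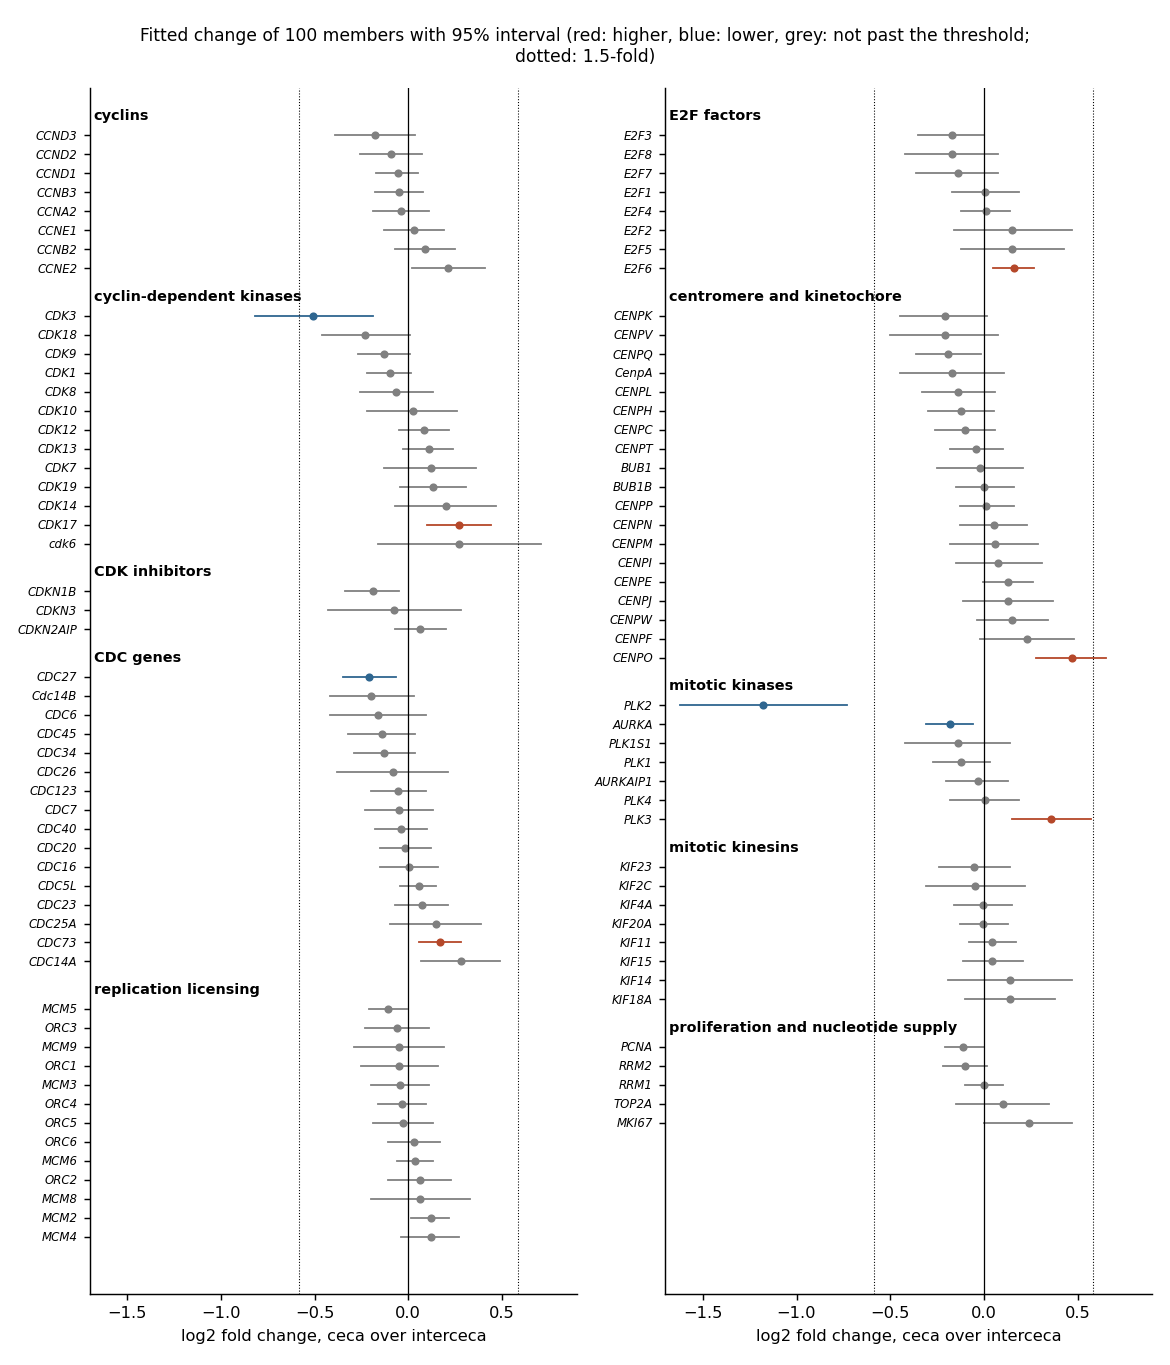
Fitted log2 fold change, ceca over interceca, of the 100 members tested (point) with its 95% interval (line), grouped by role and ordered by value within each group; dotted lines mark a 1.5-fold change. The 5 members in red were higher, the 4 in blue were lower, and 96 intervals lie between the dotted lines.

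Replicate numbers are shared by the tissues, and same-numbered libraries deviated together. With the replicate number as a block, limma called 15 of the 100 members, against 35.3% of all genes: 9 were higher, against 17.6% of all genes, and 6 were lower, against 17.7%. The 9 called without the block were called with it, and the others were CDC14A, MKI67, CENPF and MCM2 (higher) and CDKN1B and CENPK (lower). With limma-voom on recovered reads 7 members were called, against 30.1% of all genes: 5 were higher, against 15.6%, and 2 were lower, against 14.4%. Without replicate 1 of both tissues, a fit with 2 libraries a tissue, 1 member was higher (CENPO, 0.45, adjusted p = 0.0179 in limma) and 1 was lower (PLK2, -1.12, adjusted p = 0.0252), while 1145 and 1312 of all genes were called. In the 6 fits that each left out 1 library, 1 to 4 members were higher and 1 to 3 lower, with 1 higher without ceca replicate 3 and 1 lower without interceca replicate 2.

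None of the 8 cyclins tested was called by limma, beside 27.5% of all genes, and none with limma-voom on recovered reads, beside 30.1%. At an unadjusted p under 0.05 there was 1 cyclin, beside 4160 of all 10678 genes. Their log2 fold changes ran from -0.18 to 0.21, with a median of -0.045, and all 8 intervals lay inside a 1.5-fold change. CCND1, the D cyclin that couples growth signals to G1 progression, had 48.4, 52.1 and 49.3 RPKM in ceca replicates 1 to 3 and 51.8, 50.7 and 53.4 in interceca replicates 1 to 3. These ranges overlapped, and the difference was -0.057 (interval -0.17 to 0.054). CCND2, a second D cyclin, stood at 28.6 ± 0.672 RPKM in ceca and 30.6 ± 2.83 in interceca. CCND3, also a D cyclin, stood at 8.07 ± 0.45 RPKM against 9.22 ± 0.917, with all ceca libraries below all interceca libraries and an adjusted p = 0.199 in limma.

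The E cyclins activate the S phase kinase at the G1/S boundary. CCNE1 had 16.1 ± 1.13 RPKM in ceca and 15.7 ± 0.541 in interceca. CCNE2 had 13.2, 11.8 and 11.2 RPKM in ceca and 10.3, 10.9 and 9.82 in interceca. Its ceca libraries lay above all interceca libraries, but the difference of 0.21 (interval 0.018 to 0.41) did not pass the threshold (adjusted p = 0.101 in limma). CCNA2, the A cyclin of S phase and G2, was at 54.3 ± 4.11 RPKM against 55.7 ± 2.52, a difference of -0.038 (interval -0.19 to 0.11). The gene listed as CCNB2 was at 103 ± 2.74 RPKM against 97.0 ± 9.43; the RefSeq gene table (assembly GRCg7b) gives that symbol as an older name of CCNB1, so which B cyclin it is was not settled. CCNB3, a B-type cyclin, was at 72.8 ± 4.29 RPKM against 75.4 ± 3.21. CCNA1, an A cyclin known from the mammalian germ line, was above 0 in 4 libraries, reached no more than 0.18 RPKM and was not tested.

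Among the 13 CDKs tested, CDK17 was higher and CDK3 was lower, beside 27.5% of all genes called. The other 11 did not pass limma's threshold. CDK1, the kinase that triggers mitosis, had the highest level of the CDKs, 151, 150 and 146 RPKM in ceca and 162, 150 and 167 in interceca. The tissues met at interceca replicate 2, and the difference of -0.10 (interval -0.22 to 0.015) had an adjusted p = 0.179 in limma. The gene listed as cdk6, a partner of the D cyclins, had 9.97, 14.4 and 13.3 RPKM in ceca and 9.85, 13.2 and 8.03 in interceca. Its libraries overlapped, and its interval of -0.16 to 0.71 left more room than that of any other uncalled CDK tested. CDK2 and CDK5 were listed at 0 in all 6 libraries and are therefore not members.

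CDK17, a PCTAIRE-family kinase found mainly in postmitotic cells in mammals, had 25.7, 25.9 and 27.0 RPKM in ceca and 21.6, 23.8 and 19.7 in interceca. The tissues did not overlap, and the gene was 1.21-fold higher in ceca, a log2 fold change of 0.27 ± 0.07 (SE; adjusted p = 0.0276 in limma). The call held without interceca replicate 2 and was lost without each of the other 5 libraries, with adjusted p of 0.0539 to 0.0980. CDK3, a G1 kinase known from human cells, had 1.25, 1.29 and 1.52 RPKM in ceca and 2.14, 2.04 and 2.21 in interceca. It rested on few reads, 33 in the library where it had fewest, and the tissues did not overlap. Its log2 fold change was -0.51 ± 0.14 (SE; adjusted p = 0.0269 in limma). The call held without ceca replicate 3 and was lost without each of the other 5 libraries (adjusted p of 0.0604 to 0.0831), with quantile normalization (adjusted p = 0.172) and with limma-voom (adjusted p = 0.0560). Without replicate 1 of both tissues, CDK17 was at 0.28 (adjusted p = 0.0946) and CDK3 at -0.46 (adjusted p = 0.120).

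Several CDKs taken by the symbol rule act mainly in transcription. CDK7 (also the kinase that activates other CDKs), CDK8, CDK9, CDK12, CDK13 and CDK19 phosphorylate RNA polymerase II or belong to the Mediator complex, and their log2 fold changes ran from -0.13 for CDK9 to 0.13 for CDK19. None of these 6 was past limma's threshold. CDK13 had all ceca libraries above all interceca libraries, at 18.5 ± 0.628 RPKM against 17.2 ± 0.493 (adjusted p = 0.220). CDK14, CDK15 and CDK18 are relatives of CDK17; CDK14 stood at 3.70 ± 0.424 RPKM against 3.15 ± 0.126 and CDK18 at 7.43 ± 0.779 against 8.77 ± 0.719, both without overlap, while CDK15 stayed at or under 0.738 RPKM and was not tested.

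None of the 3 genes tested under CDK inhibitor symbols was called by limma or limma-voom, beside 27.5% and 30.1% of all genes. At an unadjusted p under 0.05 there was 1, beside 4160 of all 10678 genes. CDKN1B (p27) holds CDK2 complexes in check in resting and differentiating cells. It had 33.0, 32.3 and 31.1 RPKM in ceca and 39.5, 37.0 and 34.2 in interceca. All ceca libraries lay below all interceca libraries. The log2 fold change was -0.19 ± 0.06 (SE; interval -0.34 to -0.049) with an adjusted p = 0.0535 in limma, just outside the threshold. It was 0.0171 with the replicate block, 0.0473 with median-of-ratios scaling, 0.0452 with quantile normalization and 0.0230 without interceca replicate 3, so this call turned on the fit.

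Few or no reads were listed for the other inhibitors found of the p21 and INK4 families, and no gene was listed as CDKN1C. CDKN1A (p21), the inhibitor induced by p53, had 0.35, 0.229 and 0.212 RPKM in ceca and 0.251, 0.197 and 0.486 in interceca, 6 to 17 reads a library. CDKN2C (p18), an inhibitor of CDK4 and CDK6, was above 0 in 5 libraries and reached 0.251 RPKM. CDKN2B (p15), of the same family, was above 0 in ceca replicate 2 alone (0.0683 RPKM), and CDKN2A was listed at 0 in all 6. Since CDK2, which dividing cells use, was also listed at 0, a 0 here need not mean a low level. Just inside the rule of 3 libraries stood CCNA1 and CDC20B with 4 libraries above 0, and just outside it stood CDKN2B with 1. CDKN3, a phosphatase that acts on CDK1 and CDK2, was at 13.4 ± 1.75 RPKM against 14.2 ± 3.11. CDKN2AIP, a partner of the CDKN2A product and a regulator of p53 in human cells, was at 60.3 ± 3.05 against 57.7 ± 3.27.

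**Figure D3:**
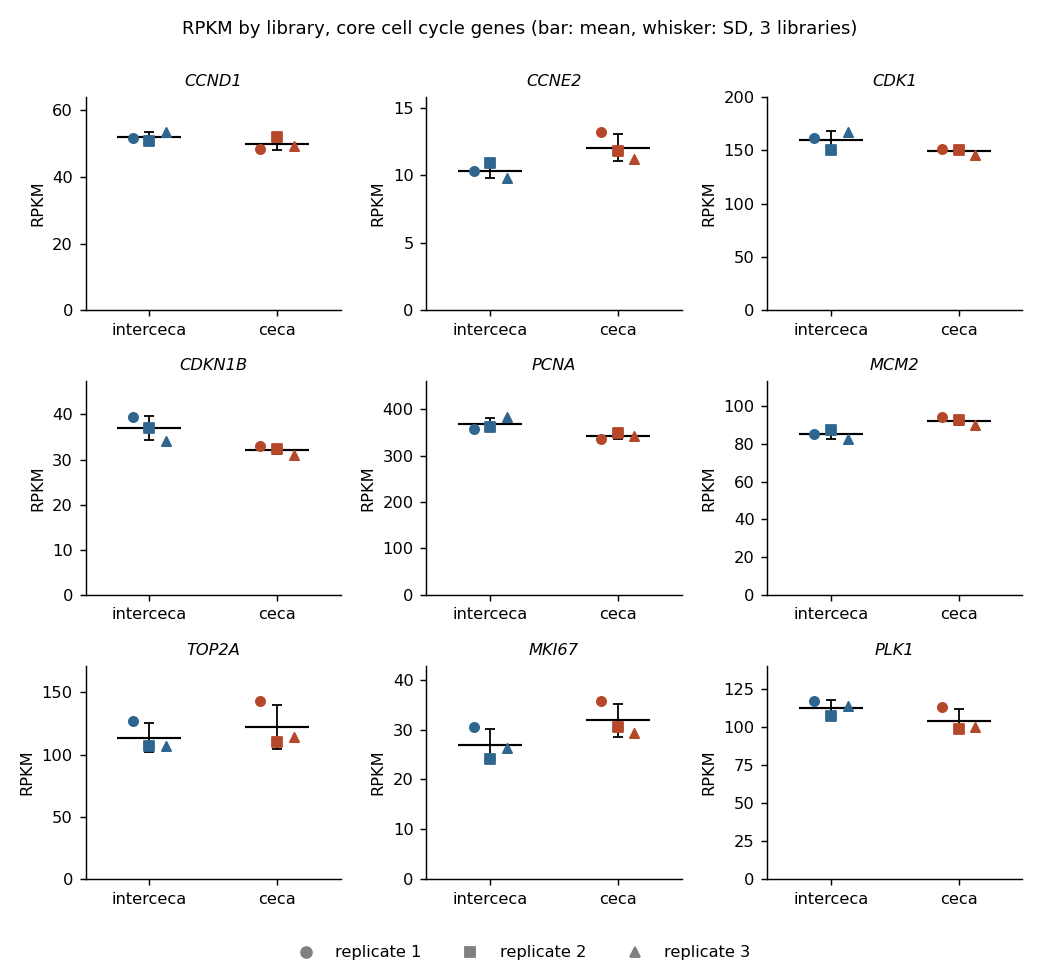
RPKM in each library (points: circle, square and triangle for replicates 1, 2 and 3) of 9 core cell cycle genes, with the mean of each tissue (bar) and its SD over 3 libraries (whisker); each axis starts at 0. No gene shown was past limma's threshold. CCNE2 and MCM2 lie above interceca in all ceca libraries, and CDKN1B and PCNA lie below. TOP2A, MKI67, PLK1 and CDKN1B are highest in replicate 1 of each tissue.

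The 13 licensing factors, 7 MCM and 6 ORC genes, ran from -0.11 to 0.12 on the log2 scale, with a median of -0.029. None was called by limma or by limma-voom, beside 27.5% and 30.1% of all genes. At an unadjusted p under 0.05 there were 2, beside 4160 of all 10678 genes. All 13 intervals lay inside a 1.5-fold change. The MCM2 to MCM6 proteins are subunits of the replicative helicase. MCM2 had 94.5, 92.9 and 89.9 RPKM in ceca and 85.4, 87.7 and 82.7 in interceca. Ceca lay above interceca in every library, with a log2 fold change of 0.12 (interval 0.015 to 0.22; adjusted p = 0.0864 in limma, 0.0431 with the replicate block).

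MCM5 had 68.7, 64.4 and 66.9 RPKM in ceca and 71.3, 73.3 and 71.0 in interceca. It lay the opposite way, with all ceca libraries below and a log2 fold change of -0.11 (interval -0.21 to -0.0070; adjusted p = 0.107 in limma). MCM3 (55.1 ± 2.67 RPKM against 56.9 ± 4.57), MCM4 (84.8 ± 6.77 against 78.1 ± 3.88) and MCM6 (58.1 ± 0.333 against 56.7 ± 1.37) overlapped between the tissues. These helicase subunits thus had no common direction. ORC1, the largest subunit of the origin recognition complex, was at 9.24 ± 0.817 RPKM against 9.54 ± 0.578. ORC2 to ORC6 and the helicases MCM8 and MCM9, which act in recombination repair, lay between -0.060 and 0.063.

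Further genes of replication carry CDC names. CDC6, which loads the MCM ring, stood at 9.63 ± 1.22 RPKM against 10.8 ± 0.938. CDC45, a part of the active helicase, was at 28.8 ± 1.39 against 31.8 ± 3.01. CDC7, the kinase that fires origins, was at 9.85 ± 0.363 against 10.2 ± 0.667. CDC25A, the phosphatase that switches CDKs on at G1/S, was at 13.0 ± 1.56 against 11.7 ± 1.15, with ceca above in all 3 same-numbered pairs and a log2 fold change of 0.15 (interval -0.10 to 0.39).

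PCNA, the sliding clamp of the replication fork, had the highest level of all members, 335, 349 and 342 RPKM in ceca and 358, 362 and 384 in interceca. All ceca libraries lay below all interceca libraries, by a log2 fold change of -0.11 (interval -0.21 to 0.0027; adjusted p = 0.137 in limma). RRM1 and RRM2 form ribonucleotide reductase, which makes deoxynucleotides. RRM1 was at 53.6 ± 1.56 RPKM against 53.6 ± 1.39, the closest agreement among the named genes (interval -0.10 to 0.10), and RRM2 was at 101 ± 5.82 against 109 ± 2.15.

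Of the 8 E2F factors, E2F6 was higher and 7 did not pass the threshold, beside 27.5% of all genes called. Their median log2 fold change was 0.0082. E2F6, a repressor that works with Polycomb proteins, had 28.3, 28.2 and 28.2 RPKM in ceca and 25.9, 24.7 and 25.3 in interceca. The tissues did not overlap, and the gene was 1.11-fold higher in ceca, a log2 fold change of 0.16 ± 0.05 (SE; adjusted p = 0.0426 in limma). This call was lost without any 1 of the 6 libraries (adjusted p of 0.0559 to 0.126), with median-of-ratios scaling (0.0533), with quantile normalization (0.0668), with limma-voom (0.0842) and without replicate 1 of both tissues (0.0946).

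The activators E2F1, E2F2 and E2F3, which drive S phase genes, were at 12.3 ± 0.847, 3.61 ± 0.306 and 12.5 ± 0.844 RPKM in ceca and at 12.2 ± 0.679, 3.21 ± 0.496 and 14.1 ± 0.785 in interceca. Their log2 fold changes of 0.0065, 0.15 and -0.17 had no common direction. The late repressors E2F7 (5.54 ± 0.494 against 6.16 ± 0.196) and E2F8 (11.8 ± 1.78 against 13.2 ± 0.642) lay at -0.14 and -0.17. The pocket protein partners E2F4 and E2F5 lay at 0.010 and 0.15.

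Among the 16 CDC genes tested, CDC73 was higher and CDC27 was lower, beside 27.5% of all genes called. Their median log2 fold change was -0.043. CDC27 is a scaffold subunit of the APC/C. It had 39.2, 34.6 and 37.4 RPKM in ceca and 44.7, 43.5 and 40.5 in interceca. The tissues did not overlap, and interceca was 1.16-fold above ceca, a log2 fold change of -0.21 ± 0.06 (SE; adjusted p = 0.0415 in limma). The call held without ceca replicate 1 and without interceca replicate 3. It was lost without each of the other 4 libraries (adjusted p of 0.10 to 0.125) and without replicate 1 of both tissues (adjusted p = 0.0706).

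Of the other APC/C genes, CDC16 was at 0.0049 (interval -0.15 to 0.16), CDC23 at 0.072 (-0.07 to 0.21) and CDC26 at -0.081 (-0.38 to 0.21) on the log2 scale, none past the threshold. Whether CDC27 differed from them in its change was not tested. CDC20, the activator that brings substrates to the APC/C, had 63.1, 58.8 and 56.5 RPKM in ceca and 61.8, 56.7 and 62.2 in interceca. These values overlapped, with a difference of -0.018 (interval -0.15 to 0.12). CDC20B, a CDC20 relative, stayed at or under 0.0829 RPKM and was not tested.

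CDC73 belongs to the PAF1 complex of transcribing RNA polymerase II. It had 38.5, 41.9 and 39.7 RPKM in ceca and 35.6, 35.7 and 35.5 in interceca. The tissues did not overlap, and the log2 fold change was 0.17 ± 0.05 (SE; adjusted p = 0.0361 in limma). In the RefSeq table this gene overlaps B3GALT2, which was itself higher in ceca (1.24 ± 0.08, adjusted p = 3.16e-05). The kit kept strand information, but whether the counting used it is not given in the sources used here, so the 2 genes are uncertain beside each other. The call held without ceca replicate 1 and was lost without each of the other 5 libraries (adjusted p of 0.0743 to 0.119), with quantile normalization (0.0544) and without replicate 1 of both tissues (0.0621).

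The phosphatases CDC14A and Cdc14B, which reverse CDK phosphorylation, leaned in opposite directions. CDC14A, named after its values were seen, had 13.1, 14.8 and 12.3 RPKM in ceca and 11.9, 10.7 and 10.2 in interceca. Ceca lay above interceca in every library, by 0.28 ± 0.09 on the log2 scale. Its adjusted p was 0.0567 in limma, 0.0312 with the replicate block, 0.045 with limma-voom and 0.0424 without interceca replicate 1. Cdc14B was at 9.0 ± 1.18 RPKM against 10.3 ± 0.23, a difference of -0.20 (adjusted p = 0.182). The remaining CDC genes are CDC5L and CDC40, known from splicing, CDC123, known from translation initiation, and CDC34, known from ubiquitin conjugation. They lay between -0.13 and 0.055, and none was past the threshold.

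Of the 19 centromere and kinetochore genes, CENPO was higher and 18 did not pass the threshold, beside 27.5% of all genes called. Their median log2 fold change was 0.0034. CENPO (ENSGALG00000016609) is a subunit of the inner kinetochore complex that recruits PLK1 in human cells. It had 17.8, 15.1 and 17.2 RPKM in ceca and 12.5, 11.6 and 11.6 in interceca. Each ceca library lay well above each interceca library. The gene was 1.38-fold higher in ceca, a log2 fold change of 0.47 ± 0.08 (SE; interval 0.28 to 0.65; adjusted p = 0.00354 in limma), and it was past the threshold under all 15 alternative settings, at 0.42 to 0.53. In RefSeq CENPO overlaps ADCY3, which did not pass the threshold (-0.086 ± 0.11, adjusted p = 0.593).

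CENPP and CENPQ, named after their values were seen, are subunits of the same complex as CENPO. CENPP had 18.0, 16.9 and 17.6 RPKM in ceca and 16.3, 18.1 and 17.7 in interceca. CENPQ had 25.8, 24.9 and 22.6 RPKM in ceca and 29.3, 25.5 and 28.9 in interceca. Neither passed the threshold: the difference was 0.014 (interval -0.13 to 0.16) for CENPP and -0.19 (interval -0.36 to -0.014; adjusted p = 0.105) for CENPQ. Whether CENPO differed from these partners in its change was not tested.

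At the base of the kinetochore, CenpA, the histone variant that marks centromeres, stood at 9.19 ± 1.38 RPKM against 10.3 ± 0.951. CENPE, a kinesin of the outer kinetochore, had 20.2, 20.4 and 19.9 RPKM in ceca and 19.2, 17.6 and 18.4 in interceca. Its ceca libraries lay above all interceca libraries, by 0.13 on the log2 scale (interval -0.0026 to 0.26; adjusted p = 0.135 in limma). CENPF, a large outer protein that accumulates in G2, had 16.1, 14.1 and 12.5 RPKM in ceca and 13.3, 11.8 and 11.0 in interceca. Its tissues overlapped, yet ceca was above interceca in all 3 same-numbered pairs, and its adjusted p went from 0.160 without to 0.0271 with the replicate block.

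The checkpoint kinases hold anaphase back until kinetochores are attached. BUB1 stood at 23.2 ± 2.36 RPKM against 23.6 ± 2.67, and BUB1B at 37.9 ± 2.13 against 37.8 ± 2.51, with intervals of -0.25 to 0.21 and -0.15 to 0.16. CENPK, a subunit of the CENP-H/I/K group and named after its values were seen, had 36.5, 44.8 and 35.7 RPKM in ceca and 45.4, 49.2 and 40.9 in interceca. Ceca was below interceca in all 3 pairs although the ranges overlapped, and the adjusted p was 0.156 without the block, 0.0140 with it and 0.0347 without ceca replicate 2. CENPJ, a centriole protein with a centromere name, lay at 0.13, and the other centromere genes lay between -0.21 and 0.15.

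Of the 7 genes under aurora and polo kinase symbols, 1 was higher and 2 were lower, beside 27.5% of all genes called. PLK2 (ENSGALG00000014725), a polo kinase known for centriole duplication in G1 and for roles in neurons, had 6.72, 9.23 and 7.28 RPKM in ceca and 17.3, 24.0 and 14.0 in interceca. All ceca libraries lay far below all interceca libraries, and in both tissues replicate 2 was highest. The level in interceca was 2.26-fold that in ceca, a log2 fold change of -1.18 ± 0.19 (SE; interval -1.62 to -0.73; adjusted p = 0.00281 in limma). The gene was past the threshold under all 15 alternative settings, at -1.35 to -0.97.

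PLK3, a stress-responsive polo kinase, went the other way, with 6.57, 6.02 and 6.92 RPKM in ceca and 5.16, 4.93 and 4.78 in interceca. The tissues did not overlap, and the gene was 1.28-fold higher in ceca, a log2 fold change of 0.36 ± 0.09 (SE; adjusted p = 0.0223 in limma). The call held without ceca replicate 2 and without interceca replicate 1. It was lost without each of the other 4 libraries (adjusted p of 0.0596 to 0.0917) and without replicate 1 of both tissues (adjusted p = 0.0728).

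AURKA, the aurora kinase of centrosomes and spindle poles, had 28.7, 28.5 and 29.4 RPKM in ceca and 31.2, 32.9 and 34.5 in interceca. All ceca libraries lay below all interceca libraries, by a log2 fold change of -0.18 ± 0.05 (SE; adjusted p = 0.0385 in limma). The call held without interceca replicate 1. It was lost without each of the other 5 libraries (adjusted p of 0.0859 to 0.109), with limma-voom (0.0730) and without replicate 1 of both tissues (0.0535).

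The polo kinases at the core of mitosis did not pass the threshold. PLK1, which drives mitotic entry and spindle assembly, had 113, 98.6 and 99.9 RPKM in ceca and 117, 107 and 114 in interceca. Ceca was below interceca in all 3 pairs and replicate 1 was highest in both tissues, with a difference of -0.12 (interval -0.27 to 0.033; adjusted p = 0.224). PLK4, the kinase that starts centriole duplication, was at 27.8 ± 2.79 RPKM against 27.6 ± 1.55. Some genes of this group carry a kinase name without being kinases: AURKAIP1, a protein of the mitochondrial ribosome, lay at -0.032 and PLK1S1, a centrosome protein, at -0.14.

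**Figure D4:**
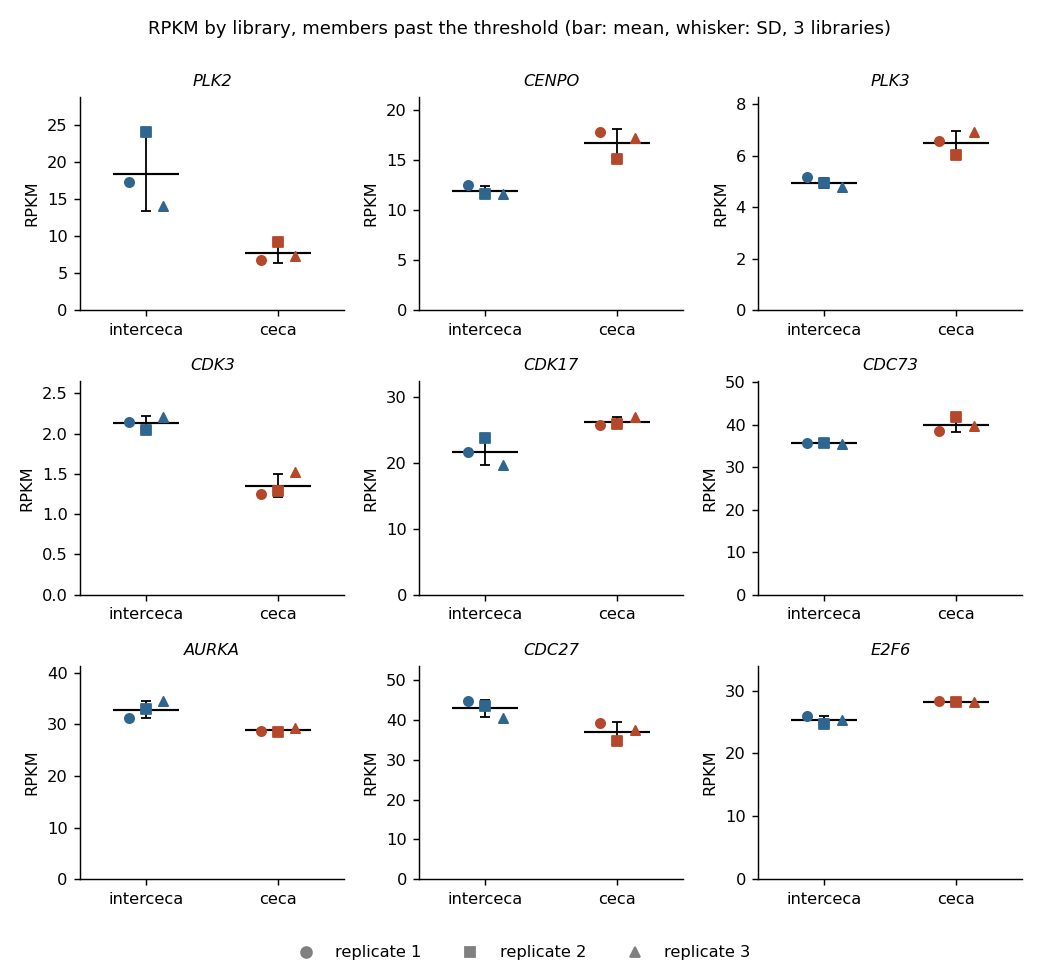
RPKM in each library (points: circle, square and triangle for replicates 1, 2 and 3) of the 9 members past limma's threshold, with the mean of each tissue (bar) and its SD over 3 libraries (whisker); each axis starts at 0. The tissues do not overlap in any panel, and PLK2, CDK3 and CENPO show the widest gaps relative to their level.

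None of the 8 mitotic kinesins was called by limma or limma-voom, beside 27.5% and 30.1% of all genes. None had an unadjusted p under 0.05, beside 4160 of all 10678 genes. They ran from -0.052 to 0.14 on the log2 scale, with a median of 0.022, and all 8 intervals lay inside a 1.5-fold change. KIF11, which pushes the spindle poles apart, had 46.1, 42.4 and 43.3 RPKM in ceca and 44.4, 40.8 and 42.4 in interceca. KIF23, a motor of cytokinesis, had 37.6, 31.9 and 32.7 RPKM against 38.4, 35.2 and 32.5. The tissues overlapped for both, with intervals of -0.080 to 0.17 and -0.24 to 0.14.

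The general proliferation markers spread between libraries of 1 tissue as well. MKI67, the Ki-67 antigen of cycling cells, had 35.7, 30.5 and 29.4 RPKM in ceca and 30.5, 24.2 and 26.3 in interceca. Replicate 1 was highest in each tissue, and ceca was above interceca in all 3 pairs, although the ranges overlapped. Its log2 fold change was 0.24 ± 0.10 (SE; interval 0.0023 to 0.47) with an adjusted p = 0.125 in limma, 0.0121 with the replicate block and 0.0425 without interceca replicate 1. TOP2A, the topoisomerase that untangles sister chromatids, had 143, 110 and 114 RPKM in ceca and 127, 107 and 107 in interceca. It too had ceca above interceca in all 3 pairs, but its difference of 0.10 (interval -0.15 to 0.35) had an adjusted p = 0.544 without and 0.0901 with the block.

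Members with well-known peaks in the cycle were then read as lists. The G1/S list held 16 tested members (MCM2 to MCM6, ORC1, CDC6, CDC7, CDC45, CDC25A, E2F1, CCNE1, CCNE2, PCNA, RRM1 and RRM2). None was called by limma or by limma-voom, beside 27.5% and 30.1% of all genes. At an unadjusted p under 0.05 there were 3, beside 4160 of all 10678 genes. With the block 1 (MCM2) was higher, beside 17.6% of all genes. Their median log2 fold change was -0.021, 8 lay above 0 and 8 below, and all 16 intervals were inside a 1.5-fold change. Summed RPKM of the list was 986.0, 957.3 and 951.5 in ceca and 991.3, 990.7 and 993.0 in interceca. All ceca sums lay below all interceca sums, with means of 964.9 ± 18.5 and 991.6 ± 1.2. PCNA was the largest part of these sums, at 342 ± 7.07 RPKM against 368 ± 14.2, and the sums were not tested.

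The G2/M list held 22 tested members (A and B cyclins, CDK1, CDC20, CenpA, CENPE, CENPF, BUB1, BUB1B, AURKA, PLK1, the kinesins, MKI67 and TOP2A). AURKA alone was called by limma and none by limma-voom, beside 27.5% and 30.1% of all genes. With the block MKI67 and CENPF were higher and AURKA was lower, beside 17.6% and 17.7% of all genes. The median log2 fold change was -0.0022, with 10 members above 0 and 12 below, and all 22 intervals lay inside a 1.5-fold change. Summed RPKM was 1145, 1035 and 1033 in ceca and 1122, 1024 and 1082 in interceca. The spread between libraries of a tissue was thus wider than the gap between the tissue means of 1071 ± 64.1 and 1076 ± 49.0. Without replicate 1 of both tissues the medians were -0.012 for the G1/S list and -0.017 for the G2/M list. Neither list held a called gene in that fit, beside 1145 higher and 1312 lower of all 10678 genes.

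The G2/M genes also differed between same-tissue libraries. Replicate 1 was the highest library in ceca and in interceca for 15 of the 22 genes, 68.2%, against 5 of 16 genes, 31.2%, of the G1/S list and 18.6% of all genes. In ceca alone the lists were closer, with replicate 1 highest for 18 of the 22 G2/M genes and 12 of the 16 G1/S genes. Over all genes it was highest there for 3757 of 10678. In interceca alone replicate 1 was highest for 17 of the 22 and 6 of the 16, beside 3557 of all 10678 genes. The median deviation of the G1/S genes was 0.074 in ceca replicate 1 and 0.0035 in interceca replicate 1. The median deviation of the G2/M genes from their tissue mean was 0.12 in ceca replicate 1 and 0.075 in interceca replicate 1 on the log2 scale. In the other 4 libraries it was between -0.068 and -0.0084. TOP2A deviated by 0.233 in ceca replicate 1 and 0.163 in interceca replicate 1, MKI67 by 0.166 and 0.179, while AURKA and CCNB2 lay below their tissue means in both. Interceca replicate 1 was also the shallowest library. The enteric neural crest sum was lowest of its tissue in ceca replicate 1 (2.64 RPKM) and highest in interceca replicate 1 (18.4). In both tissues replicate 1 had the lowest gut epithelium sum (120 RPKM in ceca, 353 in interceca). It also had the highest neuronal sum (858 and 989) and the highest endothelial sum (114 and 109). In ceca replicate 1 the neuronal sum was mostly TUBB3 (833 RPKM), while ELAVL4 (14.5), NEFL (2.17) and STMN2 (3.66) were lowest of their tissue. In interceca replicate 1 TUBB3, ELAVL4, NEFL, NEFM and STMN2 were each highest. The endothelial sum there rested on PECAM1 (47.1 RPKM against 23.4 and 28.3). TEK was also highest in interceca replicate 1, but KDR, CDH5 and TIE1 were not. The other marker lists had no such shared extreme. The part of any of these in the pattern was not tested.

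**Figure D5:**
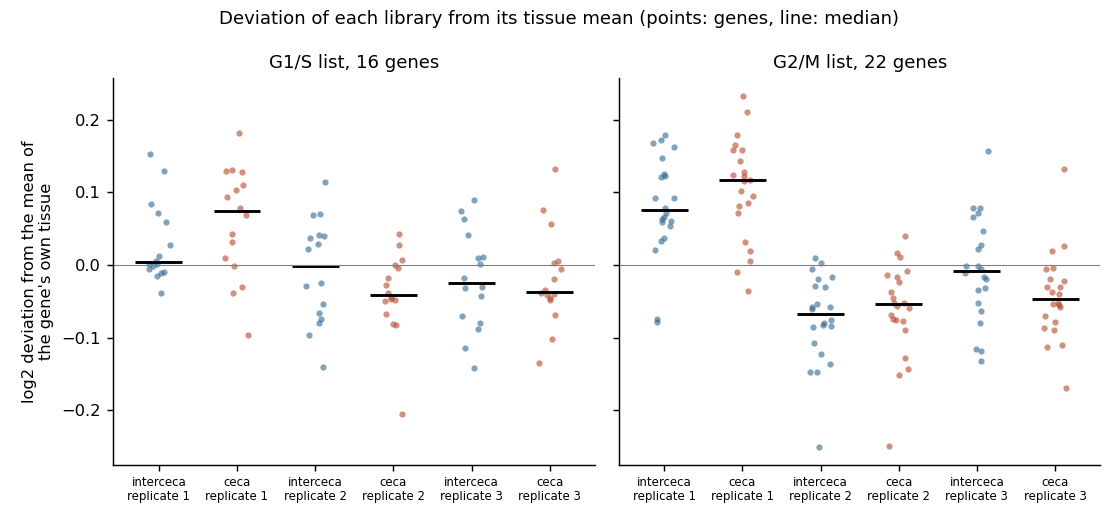
Deviation of each library from the mean of its own tissue on the log2(RPKM + 0.5) scale, for the 16 G1/S members (left) and the 22 G2/M members (right); each point is a gene and each line the median. The G2/M points of replicate 1 sit mostly above 0 in both tissues, with medians of 0.075 in interceca and 0.12 in ceca, and those of the other libraries mostly below.

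Other genes of the same pathways were read from lists of non-members. The 32 replication factors tested were GINS, polymerase, RFC and RPA subunits, nucleotide enzymes and others. Limma and limma-voom called none of them, beside 27.5% and 30.1% of all genes. At an unadjusted p under 0.05 there were 2, beside 4160 of all 10678 genes. Their median log2 fold change was -0.026 over the 32. Without replicate 1 of both tissues 1 was lower, beside 1312 of all 10678 genes. It was RFC5, a clamp loader subunit named after its values were seen (-0.21, adjusted p = 0.0296 in limma). POLA2, POLD2, RFC2 and LIG1 were listed at 0 in all libraries although dividing cells use them. Of 41 mitosis factors, 2 were higher and 1 was lower, 7.32% called, beside 27.5% of all genes. ZWILCH, part of the complex that brings dynein to kinetochores, was at 34.9 ± 0.447 RPKM against 30.7 ± 0.582. CKAP5, a microtubule polymerase of the spindle, was at 31.7 ± 1.78 against 26.4 ± 2.21. MIS12, a link between the inner and outer kinetochore, was the one lower, at 15.3 ± 0.759 against 19.5 ± 0.922 (log2 fold change -0.34 ± 0.07 SE, adjusted p = 0.00608 in limma). With the block 3 of the 41 were higher and 3 were lower, beside 17.6% and 17.7% of all genes. Without replicate 1 of both tissues 1 was higher (CKAP5) and 2 were lower, beside 1145 and 1312 of all 10678 genes. The 2 lower ones were MIS12 and NCAPH, a condensin subunit named after its values were seen (-0.20, adjusted p = 0.0496 in limma). ZWILCH (adjusted p of 0.0550 to 0.0651) and CKAP5 (0.0840 to 0.0976) each lost the call in 4 of the 6 fits without 1 library, and MIS12 in none.

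Growth control genes, regulators that act above the cycle, were read in the same way. Of 18 growth control genes tested, 3 were higher and 2 were lower, 27.8% called, beside 27.5% of all genes, and 15 of the 18 intervals lay inside a 1.5-fold change. Without replicate 1 of both tissues 4 were higher and 2 lower, beside 1145 and 1312 of all 10678 genes. The added one was MDM2, the ubiquitin ligase of p53, named after its values were seen (0.29, adjusted p = 0.0441 in limma). MYCN, a MYC family factor of progenitor cells, had 16.1, 15.0 and 14.7 RPKM in ceca and 34.3, 30.2 and 40.6 in interceca, a log2 fold change of -1.16 ± 0.10 (SE; adjusted p = 0.000130 in limma). MYC lay the opposite way, with 30.4, 30.4 and 30.7 RPKM in ceca and 25.7, 23.9 and 23.3 in interceca (0.32 ± 0.05, adjusted p = 0.00333). The libraries of the tissues did not overlap for either gene.

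TFDP2, the dimer partner of E2F factors, was at 35.8 ± 2.17 RPKM against 24.4 ± 2.13 (0.54 ± 0.08, adjusted p = 0.00122), and BTG2, an antiproliferative gene, at 41.3 ± 1.43 against 55.1 ± 3.71 (-0.41 ± 0.06, adjusted p = 0.00160). WEE1, the kinase that restrains CDK1, was higher at 60.0 ± 2.06 RPKM against 49.6 ± 6.20, with an adjusted p = 0.0479 in limma that went to 0.0754 to 0.120 in 5 of the 6 fits without 1 library, 0.0589 without a filter on low values, 0.0543 with median-of-ratios scaling and 0.0609 with quantile normalization. MYCN, MYC, TFDP2, BTG2 and MIS12 were past the threshold under all 15 alternative settings.

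The authors' deposited table holds their own comparison of the tissues. In it 6 of the 105 members had an adjusted p under 0.05, against 20.9% of all genes listed: PLK2, CENPO, PLK3, CDK17, CDK3 and CDC27. Among the genes tested here the same table called 6 of 100 members, against 28.9% of all genes. All 6 were also called by limma here. In the authors' deposited table the adjusted p was 4.24e-13 for PLK2, 8.34e-06 for CENPO, 0.0119 for PLK3, 0.0204 for CDK17, 0.0310 for CDK3 and 0.0338 for CDC27. For the 3 called here and not there it was 0.0825 for CDC73, 0.129 for AURKA and 0.203 for E2F6 in the authors' deposited table.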

How the data were processed

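The authors deposited RPKM per gene, 1 file for each of the 6 libraries, and a table of the whole series with the same RPKM columns, which all 6 files equal. The authors' own comparison stands beside them, per the file headers: a log2 fold change, its raw and adjusted p-value, and the latter's −log10. The submitters' processing notes name edgeR, HTSeq, STAR, bcl2fastq and build galGal4. Versions, settings and any use of strand in the counting are not given in the sources used. A row of column totals, which names no gene, was dropped.

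RPKM are not counts, so no count model was the main test. The main test was limma 3.58.1 (R 4.3.3) on log2(RPKM + 0.5), two-sided, with tissue as its one term and a mean-variance trend (residual degrees of freedom 4, prior 3.85). Python 3.11.15 made the tables and figures. The RPKM steps gave back whole reads, to 0.01 of a read, for 100.0% of the 14080 genes with a value above 0. The smallest whole numbers were taken, so genes above 0 in a single library passed by construction and their read numbers are not known. The fewer libraries a gene was above 0 in, the more easily it passed, so the share is a weak check for such genes. The recovered reads gave the depth and fed limma-voom as an alternative, which called 3212 genes, 1670 higher and 1542 lower. The fit was tested on simulated data.

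Deviations from the tissue means correlated across genes at 0.364, 0.227 and 0.213 between same-numbered libraries and at -0.238 to 0.0314 between others. By this check libraries of 1 number deviate together, which the labels do not state; the main test has no block, and the fit with the replicate block is given beside it as an alternative.

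Named genes were those past the threshold, up to 4 per role and direction, and a list of core genes whatever their result. Of the core genes, CDK4, CDKN1C, CDC25B, MCM7 and AURKB were not listed under these symbols, so their levels are not known here. The G1/S list was planned with 18 genes and the G2/M list with 27, of which 16 and 22 were tested. The members, lists and rules were chosen with earlier results of these data known. Alternatives were 2 pseudocounts, 2 filters, 2 scalings, limma-voom, the replicate block and each library left out. RefSeq names (GRCg7b) were used to find overlapping genes, and AURKA had no match there. Besides CDC73 and CENPO, the called members CDK17, CDK3 and E2F6 each overlap a long non-coding RNA gene there. CDKN1B overlaps a protein-coding gene, and PLK2, PLK3 and CDC27 overlap none. The neighbours of CDK17, CDK3, E2F6 and CDKN1B were not found by symbol among the genes tested, so no difference could be fitted for them. Whether reads of these neighbours entered the counts was not tested. No promoter or protein sequences were used, so the planned motif search was not run.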

Additional observations from a re-analysis of the deposited data

How the results depend on the processing

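Pseudocounts of 0.1 and 1 and a fit with no filter left 5 members higher and 4 lower, and a filter at 5 RPKM, under which CDK3 was not tested, left 5 and 3. Quantile normalization left 3 higher, limma-voom left 2 lower, and the replicate block gave 9 higher. The fit without replicate 1 of both tissues, chosen after seeing the data, gave 1 higher and 1 lower. Leaving out 1 library at a time, members higher ran from 1 to 4 and lower from 1 to 3, and all genes higher ran from 947, without ceca replicate 3, to 1314 and lower from 1163 to 1426; fewer libraries entered these fits. The members' median log2 fold change ran from -0.036 to 0.02 there, so its sign was not fixed. Of 794 results for 53 named genes under alternatives, 715 stayed on their side of the threshold with their direction where called, 65 lost the call, 14 gained it and none reversed; 27 uncalled values changed sign. The replicate block changed no call of a named gene beside those given with it, CDC14A, MKI67, CENPF, MCM2, CDKN1B and CENPK. For 7 of the 9 members, all but PLK2 and CENPO, the call was lost in 4 or more of the 6 fits without 1 library. Whether this came from the library left out or from the smaller number of libraries was not tested. CCNB2 passed in 1 fit, without interceca replicate 3 (adjusted p = 0.0407).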
